A study of Mus musculus with 3 samples.

Results

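The 42 genes described here encode the machinery of the G2 phase and of mitosis. They were chosen by symbol, as a list of known mitotic genes, out of the 32285 genes counted in single cells of the mouse thymus. All 42 were detected in each library. They fall into 6 role groups: 9 kinases, cyclins and phosphatases of mitotic entry, 7 genes of the spindle checkpoint and its ubiquitin ligase, 6 centromere and kinetochore genes, 3 chromosomal passenger genes and partners, 4 genes of chromosome structure, and 13 genes of the spindle, its motors and cytokinesis. The study compared thymus from female mice of 4 weeks with germline changes of p53, the damage-responsive transcription factor encoded by Trp53. It holds 3 libraries, 1 per genotype: p53+/-, which keeps 1 wild-type allele, p53 AD/-, which carries the AD allele over a null allele, and p53-/-, which has no functional allele. All 3 genotypes share at least 1 null allele, and none is labelled as homozygous wild type, although the design text calls the first group WT. The labels do not spell out AD (the series title speaks of p53 dimers), give the strain as a BALB/C cross with C57BL6, C57BL7 or C57BL8, and do not say whether a library came from 1 mouse or from several. With 1 library per genotype there is no replicate check, so no p-value is given, and differences between genotypes and between libraries cannot be told apart.

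Entry into mitosis is driven by Cdk1, the mitotic kinase, once it is bound to the A and B cyclins and freed of its inhibitory phosphates by the Cdc25 phosphatases. Aurora and Polo kinases then build the spindle, kinetochore proteins attach chromosomes to it, and the checkpoint holds back the ligase that destroys the cyclins until attachment is complete. In the thymus, double-negative (DN) cells that pass selection of the T cell receptor beta chain divide rapidly as they become double-positive (DP), and most DP cells then leave the cycle to rearrange the alpha chain. As background, p53 is known to lower many G2 and mitotic genes through the inhibitor p21 (Cdkn1a) and the DREAM repressor complex. DREAM and its activating counterpart bind a short element near the start site of these genes, most often with the letters TTTGAA, often beside CCAAT boxes bound by the factor NF-Y.

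The promoters of 4 genes hold both elements. They were chosen as those with the most UMIs (unique molecular identifiers, the counted molecules) among genes holding both anywhere in the window. Each window runs from 250 bases before to 50 bases after the RefSeq start site on GRCm38.p6, 5′ to 3′ on the strand of the gene. Capitals mark CCAAT, the element TTTGAA and its variant TTTAAA, each on either strand. They belong to Hmgb2, a chromatin protein that bends DNA (chr8:57511593-57511892, plus strand), Top2a, the topoisomerase that untangles sister chromatids (chr11:99024140-99024439, minus strand), Mki67, the surfactant of mitotic chromosomes (chr7:135716330-135716629, minus strand), and Ube2c, the ubiquitin-conjugating enzyme of the anaphase-promoting complex (chr2:164769679-164769978, plus strand).
Hmgb2: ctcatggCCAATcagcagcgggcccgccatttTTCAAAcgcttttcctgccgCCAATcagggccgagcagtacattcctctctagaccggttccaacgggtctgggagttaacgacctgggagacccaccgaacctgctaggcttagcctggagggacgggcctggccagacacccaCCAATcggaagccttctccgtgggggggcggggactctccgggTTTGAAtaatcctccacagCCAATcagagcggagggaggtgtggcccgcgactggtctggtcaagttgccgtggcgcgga
Top2a: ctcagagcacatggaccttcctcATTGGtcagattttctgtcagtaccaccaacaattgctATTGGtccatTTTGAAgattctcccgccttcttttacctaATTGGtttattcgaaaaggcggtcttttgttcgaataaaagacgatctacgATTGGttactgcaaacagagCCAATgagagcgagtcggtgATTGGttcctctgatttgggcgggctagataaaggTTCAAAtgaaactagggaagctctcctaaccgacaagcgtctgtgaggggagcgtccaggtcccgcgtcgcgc
Mki67: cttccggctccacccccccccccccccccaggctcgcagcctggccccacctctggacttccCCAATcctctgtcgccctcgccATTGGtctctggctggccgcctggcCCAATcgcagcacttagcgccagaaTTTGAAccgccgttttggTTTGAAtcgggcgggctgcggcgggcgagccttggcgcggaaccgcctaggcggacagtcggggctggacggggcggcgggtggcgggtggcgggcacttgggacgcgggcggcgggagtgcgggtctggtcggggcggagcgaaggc
Ube2c: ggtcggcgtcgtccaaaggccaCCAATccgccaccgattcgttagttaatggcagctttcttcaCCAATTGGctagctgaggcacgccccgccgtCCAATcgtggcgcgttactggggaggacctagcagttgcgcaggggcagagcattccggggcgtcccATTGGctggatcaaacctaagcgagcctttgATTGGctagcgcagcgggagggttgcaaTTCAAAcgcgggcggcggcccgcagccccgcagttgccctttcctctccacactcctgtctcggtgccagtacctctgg
A RefSeq window was found for 35 of the 42 genes. Genes were counted, and a gene with more than 1 window, such as Gtse1, counted if any of them held the element. CCAAT on either strand was present in 26 of these 35 genes (74.3%), against 41.1% of the 27025 genes with a window. TTTGAA on either strand was in 25 (71.4%, against 20.2%) and TTTAAA in 10 (28.6%, against 14.9%). Within 50 bases of the start site, either of the last 2 elements was in 25 windows (71.4%, against 9.54%), and 24 (68.6%, against 12.2%) held both a CCAAT and 1 of those elements anywhere. A match is a run of letters and no measure of binding. Nothing was measured at these promoters here.

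The deposited counts gave 8150, 6171 and 9543 cells with at least 500 genes and under 10% mitochondrial UMIs in p53+/-, p53 AD/- and p53-/-, the order used throughout, with median UMIs of 3239, 2484 and 3062. Of the targeted gene, Trp53, cycling DP-like cells held 84.6, 73.2 and 74.4 counts per 1000000 UMIs of the class (CPM), and resting DP-like cells 57.8, 71.3 and 44.1 CPM, with p53-/- lowest in the latter and transcript present in every library. The counted part of the transcript may lie outside the deletion, which the labels do not describe. Cell barcodes were shared between p53-/- and p53+/- (29), p53 AD/- and p53+/- (15) and p53 AD/- and p53-/- (21). Doublets remain, since the caller marked 1 of 25077 barcodes. Cells were clustered without the 42 genes and named from other markers, with limits set after the data were seen, so names may differ from the study's own. In that order there were 101, 62 and 159 DN-like cells (cluster 13), 1075, 777 and 1671 cycling DP-like cells (clusters 8, 9 and 15), 29, 40 and 57 cycling mature-like cells (cluster 17) and 4117, 3265 and 4447 resting DP-like cells, beside selected-like and mature SP-like (single-positive) cells. The names rested on defining markers. Il2ra was at 402 CPM in DN-like against 5.24 CPM in cycling DP-like cells. Cd8b1 was at 924 CPM in cycling DP-like, 80.4 CPM in DN-like and 652 CPM in cycling mature-like cells. Rag1, at 316 CPM in cycling DP-like and 262 CPM in DN-like cells, set these classes apart little, and was at 2252 CPM in resting DP-like cells. Ccr7 was at 213 CPM in cycling mature-like against 1.89 CPM in cycling DP-like cells. DN-like cells also held gamma-delta markers (1355 CPM over 7 genes, against 1520 CPM over 11 DN genes).

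The genes were high in dividing cells at every stage and low in resting ones. Their summed level was 18366, 19550 and 20018 CPM in cycling DP-like cells and 17261, 11966 and 16573 CPM in cycling mature-like cells. DN-like cells, of which only some cycled, held 5732, 6491 and 6287 CPM. Resting DP-like cells held 1214, 1082 and 1372 CPM, which was 6.61%, 5.53% and 6.85% of the cycling DP-like level. All intervals given below are 95% intervals for counting error only.

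**Figure D1:**
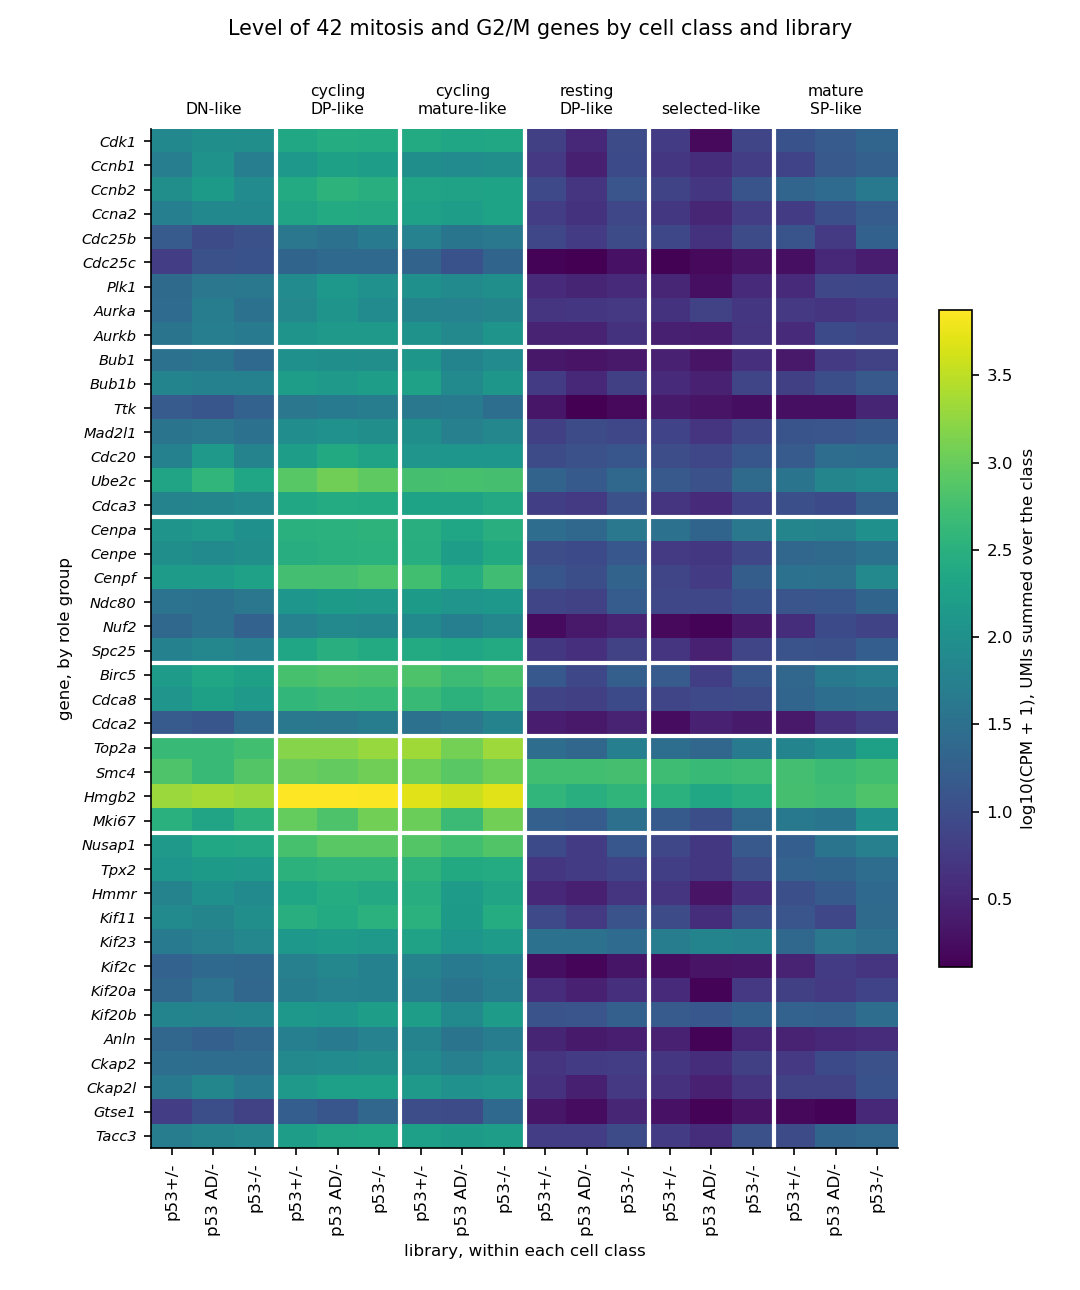
Level of each of the 42 genes, as log10(CPM + 1) of UMIs summed over a cell class, in 6 classes (blocks of columns) and the 3 libraries within each; white lines separate classes and role groups. The cycling DP-like and cycling mature-like blocks are bright for nearly every gene, DN-like cells lie between, and among resting cells Hmgb2 and Smc4 stay bright.

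Hmgb2 alone made up 36.5% of the UMIs of the set, so sums are also given without it: 11066, 12069 and 12913 CPM in cycling DP-like cells and 832, 781 and 997 CPM in resting DP-like cells. Cycling DP-like and cycling mature-like cells together were 13.5% (12.8 to 14.3), 13.2% (12.4 to 14.1) and 18.1% (17.3 to 18.9) of all cells. This cycling share leaves out dividing cells in other classes, such as DN-like cells. The share was highest in p53-/-, and the intervals of the other libraries overlap. With at least 1000 genes per cell those intervals did not overlap, at 13.5% (12.8 to 14.3) in p53+/- and 16.3% (15.3 to 17.4) in p53 AD/-. Nor did they without cells under 1% of the nuclear RNA Malat1, at 6.16% (5.62 to 6.73) and 7.55% (6.79 to 8.36). Since shares add up to the whole, a larger cycling share and a smaller resting share cannot be told apart.

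DN-like cells held the genes at 31.2%, 33.2% and 31.4% of the cycling DP-like level, and this mean hid a wide spread among the cells. When DN-like cells were ranked within a library by other cycle genes and divided into 3 equal parts, the summed level was 1221, 826 and 1092 CPM in the low part and 9574, 11610 and 10591 CPM in the high part. Il2ra, the DN marker, was still present in the high part at 413, 182 and 363 CPM. Among single genes, Smc4, a condensin subunit, stood at a median of 65.4% of its cycling DP-like level (47.7% to 66.7% over the libraries), and Spc25, a subunit of the NDC80 kinetochore complex, at 24.1% (23.1% to 25.8%).

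Cycling mature-like cells were few. In p53+/- they held the genes at 94.0% of the cycling DP-like level, in p53-/- at 82.8% and in p53 AD/- at 61.2%. Relative to the cycling DP-like level the lowest members were Ccnb1, a B cyclin, with a median of 57.2% (46.7% to 73.5%), Ccnb2, the other B cyclin, 64.4% (54.5% to 78.7%), and Cdc20, the activator of the anaphase-promoting complex, 65.1% (48.5% to 72.1%). Among the highest, Top2a was at 108% (80.7% to 142%) and Cdc25b, a phosphatase that activates Cdk1, at 115% (94.9% to 147%).

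Within the cycling DP-like class the genes followed an order. Cells of each library were ranked by the share of their UMIs in 25 S-phase genes that are not among the 42, divided into 3 equal parts, and the level in the part poorest in S-phase UMIs was set against the richest. Cdc25b, Cenpa, Cdc20, Ube2c and Ccnb1 were far higher in the S-poor part, while Spc25, Ndc80 and Top2a were nearly level. The parts are ranges of a continuous score: 377 of 1075, 234 of 777 and 536 of 1671 cells lay within 0.1 percentage points of a boundary. The S-poor part may also hold cells in G1, and it had fewer UMIs per cell (medians of 9557, 7613 and 8493) than the S-rich part (12715, 10600 and 10684).

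**Figure D2:**
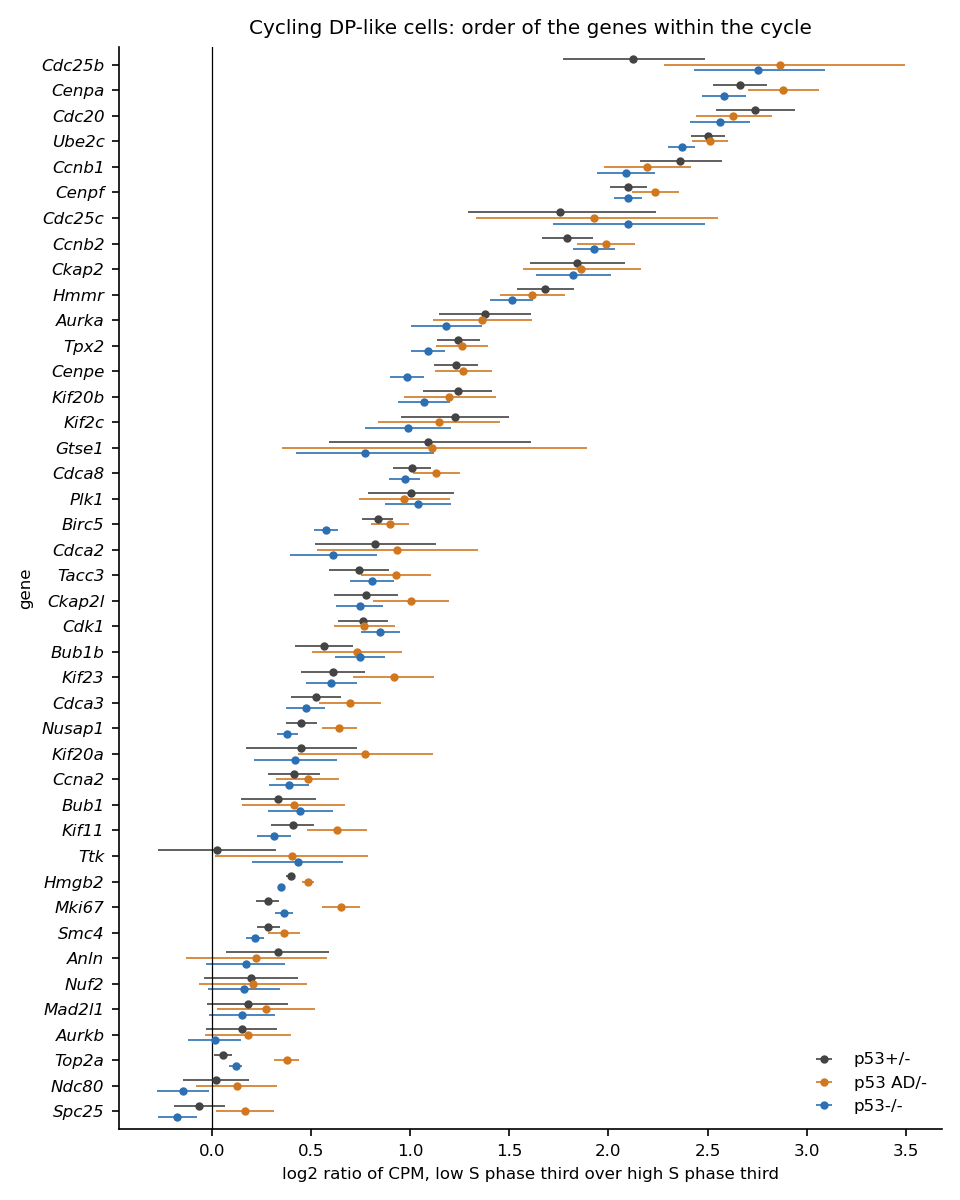
Ratio of CPM between the S-poor and the S-rich part of cycling DP-like cells (x axis, log2) for each of the 42 genes (y axis, in order of their median), in 3 libraries (colours); points are ratios and bars 95% counting intervals. Cdc25b, Cenpa, Cdc20, Ube2c and Ccnb1 have ratios over 2 in every library, and Spc25 and Ndc80 lie near 0.

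Cdc20 was at 323, 536 and 367 CPM in the S-poor part against 48.4, 86.5 and 62.2 CPM in the S-rich part. Ube2c was at 1522, 2258 and 1636 CPM against 269, 396 and 317 CPM. Cenpa, the histone H3 variant of centromeres, was at 652, 726 and 705 CPM against 103, 98.5 and 118 CPM. For all 3 genes the S-poor part was the higher one in every library. Over the libraries the median log2 ratio was 2.76 for Cdc25b, 2.66 for Cenpa, 2.63 for Cdc20, 2.50 for Ube2c and 2.20 for Ccnb1. At the other end, Spc25 was at 212, 314 and 248 CPM against 221, 280 and 280 CPM, with a median ratio of -0.06. Its ratio changed sign between libraries, from -0.18 (-0.27 to -0.08) in p53-/- to 0.17 (0.02 to 0.31) in p53 AD/-. Ndc80, the namesake of that kinetochore complex, Top2a, Aurkb, the kinase of the chromosomal passenger complex, and Mad2l1, a checkpoint protein, had medians of 0.02, 0.12, 0.15 and 0.18. Cdk1 lay between, at 298, 349 and 355 CPM against 176, 205 and 197 CPM, with a median ratio of 0.77.

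The clusters of the class, made without these genes, also differed in these genes. Cluster 9, with Pclaf, Dut and Hells among its leading genes, held Cdk1 at 118 CPM. Cluster 8, with histone genes and also Pclaf among its leading genes, held it at 301 CPM, and cluster 15 at 268 CPM. The S-phase genes used for the ranking summed to 7096 CPM in cluster 9, 7703 CPM in cluster 8 and 1191 CPM in cluster 15. Other G2 and mitotic genes, also outside the set, summed to 3212, 7894 and 7704 CPM. Cluster 15 held Cenpa at 962 CPM against 282 CPM in cluster 8, and Cdc20 at 540 against 179 CPM. Spc25 was highest in cluster 8 at 340 CPM, against 49.8 CPM in cluster 9 and 110 CPM in cluster 15. The mix of clusters differed between libraries: cluster 9 held 24.2%, 18.4% and 24.7% of cycling DP-like cells and cluster 15 held 14.6%, 17.0% and 12.4%, in the order of genotypes above.

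Between genotypes, cycling DP-like cells differed little in their summed level and more in single genes. Most of the 42 genes were a little higher in p53-/- than in p53+/-. In p53 AD/-, 8 of 9 entry genes and 5 of 7 checkpoint and ubiquitin ligase genes were higher than in p53+/-, with Cdc20, Plk1 and Aurka at the highest ratios, while Mki67, Gtse1 and Cdc25b were lower than in both other libraries. The 3 pairs of libraries share libraries and are not independent of each other. The summed log2 ratio was 0.12 (0.12 to 0.13) in the first pair, p53-/- over p53+/-. It was 0.09 (0.08 to 0.10) in the second, p53 AD/- over p53+/-, and -0.03 (-0.04 to -0.03) in the last, p53 AD/- over p53-/-. The median over all genes was itself shifted, by 0.08, -0.12 and -0.21. Relative to that median the sums stood at 0.04, 0.21 and 0.18, so p53 AD/- lay below p53-/- on the scale of total UMIs and above it relative to other genes. By single genes, 39 of 42 were higher in p53-/- than in p53+/- (66.1% of all genes with at least 30 UMIs over the pair were), 30 of 42 were higher in p53 AD/- than in p53+/- (37.9% of all genes were) and 23 of 42 were higher in p53 AD/- than in p53-/- (32.4% of all genes were). With TMM factors these counts were 37, 34 and 31, and with median-of-ratios factors 37, 35 and 32. Past 1.5-fold there were 0 genes in the first pair (4.80% of all genes were higher and 2.15% lower). In the second, 2 were higher, Cdc20 and Plk1, and 0 lower (4.62% and 16.6% of all genes). In the last, 0 were higher and 2 lower, Mki67 and Gtse1 (3.99% and 23.5% of all genes). Leaving out cells with under 1% of Malat1, a nuclear RNA, turned all 3 summed ratios, to -0.05, -0.03 and 0.01. Of the 42 genes 21, 23 and 22 were then higher, and 0 were past 1.5-fold in the second pair, Cdc20 and Plk1 included. Such cells made up 57.9%, 57.7% and 46.3% of the class.

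**Figure D3:**
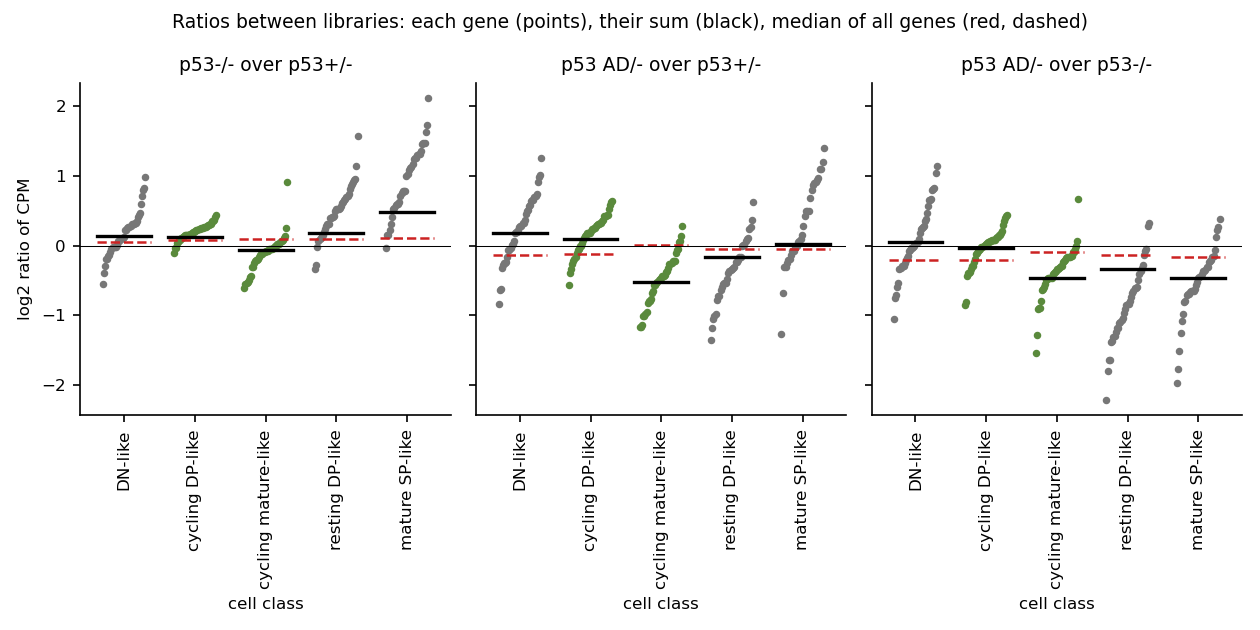
Ratio of CPM (log2, y axis) between 2 libraries in 5 cell classes (x axis), 1 panel for each of the 3 pairs; points are genes with at least 30 UMIs over the pair (green in cycling classes), black lines the ratio of the summed level and red dashed lines the median of all genes. In cycling DP-like cells the black lines lie between -0.03 and 0.12, on the scale of total UMIs (the p53 AD/- over p53-/- value is positive with TMM or median-of-ratios factors), and in resting DP-like cells most points are below 0 for p53 AD/- over p53-/-.

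Among the genes of mitotic entry, Ccnb2 was at 259, 347 and 305 CPM and Cdk1 at 228, 272 and 261 CPM in cycling DP-like cells. For both, p53+/- was the lowest and p53 AD/- the highest library. Their log2 ratios for p53 AD/- over p53+/- were 0.42 (0.36 to 0.49) and 0.25 (0.18 to 0.33). Plk1, the Polo kinase of mitotic entry, was at 84.4, 130 and 101 CPM, and Aurka, the centrosomal Aurora kinase, at 76.2, 114 and 84.2 CPM. For these kinases p53 AD/- stood above both other libraries, with ratios over p53+/- of 0.62 (0.51 to 0.73) and 0.58 (0.46 to 0.70). Cdc25b went the other way, at 39.7, 31.5 and 42.7 CPM, with a ratio of -0.33 (-0.53 to -0.14) to p53+/-. As a group, 9 of 9 genes were higher in p53-/- than in p53+/- (66.1% of all genes were). Over p53+/-, 8 of 9 were higher in p53 AD/- (37.9% of all genes were). The summed log2 ratios were 0.24 and 0.36.

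Of the checkpoint and ubiquitin ligase genes, Ube2c was at 785, 1129 and 857 CPM. Cdca3, a substrate adaptor that promotes mitotic entry, was at 221, 261 and 255 CPM. Cdc20 was at 162, 252 and 188 CPM, the largest ratio of the 42 for p53 AD/- over p53+/-, 0.64 (0.56 to 0.72). In Ube2c and Cdc20 the p53 AD/- library stood above the other libraries, which were closer to each other. Of the 7 genes of the group, 5 were higher and 2 lower in p53 AD/- than in p53+/- (37.9% of all genes were higher). The lower ones were checkpoint genes: Bub1b, which encodes BubR1, was at 163, 136 and 160 CPM, and Bub1, the checkpoint kinase, at 99.9, 95.7 and 92.8 CPM. Bub1b had a p53 AD/- over p53+/- ratio of -0.26 (-0.36 to -0.17), and Bub1 one of -0.06, which is above 0 with TMM or median-of-ratios factors. The checkpoint genes Mad2l1 and Ttk were higher, with ratios of 0.20 (0.08 to 0.32) and 0.13 (-0.04 to 0.31). Reads of Cdc20 and Ube2c could include reads of Elovl1 and Tnnc2, which overlap them on the other strand. Strand use in counting, not given in the sources used here, decides this. Of the 42 genes, 20 overlap another annotated gene, some on the same strand and some on the other.

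Centromere and kinetochore genes had summed ratios of 0.18, 0.13 and -0.05 in the 3 pairs. Cenpf, a kinetochore protein of G2, was at 556, 553 and 633 CPM and Cenpa at 310, 327 and 345 CPM, highest in p53-/- for both on the scale of total UMIs. With TMM factors Cenpa, and with median-of-ratios factors both, were higher in p53 AD/- than in p53-/-. For p53-/- over p53+/-, 6 of 6 genes were higher (66.1% of all genes were). Of the passenger group, Birc5, the survivin subunit, was at 590, 670 and 623 CPM, and Cdca8, the borealin subunit, at 398, 445 and 423 CPM. Both were highest in p53 AD/-, with ratios over p53+/- of 0.18 (0.14 to 0.23) and 0.16 (0.10 to 0.21).

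The genes of chromosome structure held the widest gap between libraries, that of Mki67. Hmgb2 was at 7300, 7481 and 7105 CPM in the 3 libraries. Its log2 ratios were small in all 3 pairs, between -0.04 and 0.07. Top2a was at 1536, 1523 and 1982 CPM, so p53-/- stood above the others, which differed by -0.01 (with the sign turned by TMM or median-of-ratios factors). For p53-/- over p53+/- its ratio was 0.37 (0.35 to 0.39). Mki67, on the minus strand at chr7:135689784-135716361 in GRCm38, was at 975, 657 and 1193 CPM. All 3 libraries were apart for Mki67, with ratios of 0.29 (0.26 to 0.32), -0.57 (-0.61 to -0.53) and -0.86 (-0.90 to -0.82) in the 3 pairs.

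In the largest group, of the spindle and cytokinesis, Nusap1, a microtubule-bundling protein, was at 594, 801 and 805 CPM. Tpx2, the activator of Aurora A on the spindle, was at 331, 375 and 372 CPM. For both, p53+/- was the lowest library, and Nusap1 had the highest ratio of the 42 for p53-/- over p53+/-, 0.44 (0.40 to 0.47). Gtse1, a G2 and S phase protein known to bind p53 and hold down its activity, was at 16.0, 12.2 and 21.3 CPM from 271, 120 and 497 UMIs. Its ratios were 0.41 (0.20 to 0.63), -0.39 (-0.71 to -0.08) and -0.81 (-1.11 to -0.52), so p53 AD/- was lowest and p53-/- highest. All 13 genes of the group were higher in p53-/- than in p53+/- (66.1% of all genes were). With TMM or median-of-ratios factors Kif2c, a microtubule-depolymerising kinesin, was lower. The summed ratio was 0.27.

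In cycling DP-like cells the differences that involve p53 AD/- ran with transcript length. Genes with a longer longest transcript (GENCODE M21) had lower ratios, both among the 42 and among all genes. With p53 AD/- set over p53+/-, the median ratio of all genes was 0.10, -0.12 and -0.37 in the short, middle and long parts of the length range, and of the 42 genes 0.47, 0.18 and -0.01. All 8 short genes, 18 of 23 of middle length and 4 of 11 long ones were higher in p53 AD/-. Across genes, Spearman's rho was -0.58 for the 42 and -0.43 for 10631 genes, and for p53 AD/- over p53-/- it was -0.50 and -0.44. Genes are not independent replicates and share their libraries and depth. For p53-/- over p53+/-, rho was -0.10 for the 42 and 0.11 for 11298 genes. In resting DP-like cells the measured members did not show the pattern, with rho of 0.03 for p53 AD/- over p53+/- and -0.02 over p53-/-, beside -0.40 and -0.44 for all genes. Mki67 has a longest transcript of 10061 bases and Cdc20 one of 1793 bases, while Gtse1 (2692 bases) and Mad2l1 (7557 bases) depart from the pattern. The part of length, or of what else differs with it between libraries, was not tested.

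**Figure D4:**
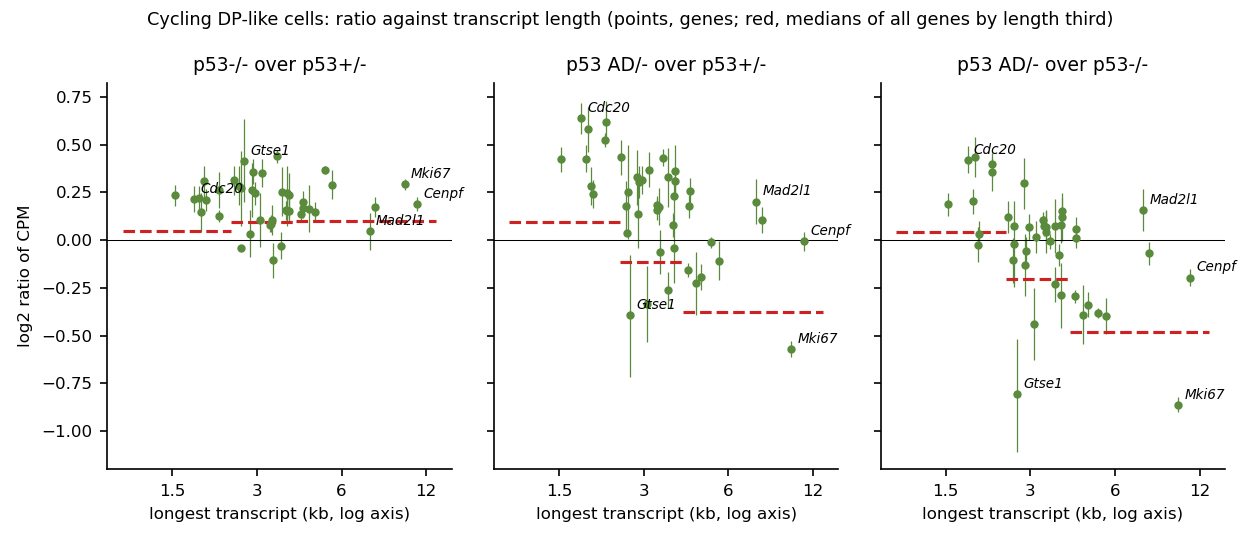
Ratio of CPM in cycling DP-like cells (log2, y axis) against the longest transcript (kilobases, log x axis) for the 42 genes (points with 95% counting intervals), 1 panel for each pair of libraries; red dashed lines are medians of all genes in 3 length ranges. Both panels with p53 AD/- fall from left to right, with Cdc20 high and Mki67 low on the scale of total UMIs; the p53-/- over p53+/- panel is nearly flat.

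Within single clusters of the class the first pair kept its direction, and the second did not in each. For p53-/- over p53+/-, 39 of 42 genes were higher in each of clusters 8, 9 and 15, with summed ratios of 0.14, 0.14 and 0.24. The p53 AD/- over p53+/- sums were 0.08, -0.04 and 0.02. Against p53-/- they were -0.06, -0.18 and -0.22, with 19, 9 and 11 of 42 genes higher, fewer than the 23 in the whole class. At an equal mix of clusters in each library the summed ratios were 0.16, 0.06 and -0.10 in the 3 pairs, with 40, 30 and 14 genes higher and, in the second pair, 1 higher and 1 lower past 1.5-fold. The share of all genes that were higher was not computed within clusters or at an equal mix. In the whole class it was 66.1%, 37.9% and 32.4% in the 3 pairs, so these counts alone do not set the members apart from other genes. Beside these, Cdkn1a was at 3.12, 11.2 and 4.75 CPM in cycling DP-like cells, low in every library and highest in p53 AD/-. DN-like cells held it at 51.6, 55.2 and 81.8 CPM.

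In DN-like cells several entry and ligase genes were higher in p53 AD/-, with Ccnb1, Cdc20 and Aurka as examples. Over p53+/-, 7 of 8 measured entry genes and 5 of 7 checkpoint and ligase genes were higher, and over p53-/- 6 of 9 and 4 of 7. The summed log2 ratio of the 42 was 0.13 (0.10 to 0.17) in the first pair, 0.18 (0.13 to 0.23) in the second and 0.05 (0.00 to 0.09) in the last, beside all-gene medians of 0.05, -0.14 and -0.21. Without Hmgb2 it was 0.19 (0.15 to 0.24), 0.17 (0.11 to 0.23) and -0.03 (-0.08 to 0.03), so the last turned sign. In the first pair, p53-/- over p53+/-, 28 of 41 genes were higher (56.3% of all genes), with 5 higher and 0 lower past 1.5-fold (6.20% and 4.90% of all genes). In the second, p53 AD/- over p53+/-, 28 of 40 were higher (42.4% of all genes), with 10 higher and 3 lower past 1.5-fold (11.7% and 28.3% of all genes). In the last, p53 AD/- over p53-/-, 21 of 41 were higher (37.5% of all genes), with 8 higher and 4 lower past 1.5-fold (8.0% and 30% of all genes). Ccnb1 was at 52.2, 105 and 51.3 CPM, with 103 UMIs behind the p53 AD/- value. Cdc20 was at 57.5, 137 and 61.8 CPM and Aurka at 25.2, 50.1 and 31.3 CPM. For all 3 genes p53 AD/- stood alone above the other libraries, with ratios over p53+/- of 1.01 (0.59 to 1.44), 1.25 (0.87 to 1.64) and 0.99 (0.37 to 1.62). Smc4 was at 682, 437 and 735 CPM and Mki67 at 314, 204 and 335 CPM, lowest in p53 AD/-. DN-like cells under 1% of Malat1 made up 35.6%, 80.6% and 31.4% of the class. The part of that difference in these ratios was not tested.

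In cycling mature-like cells the genes were lower in p53 AD/- than in both other libraries. In the same 3 pairs the summed ratio was -0.06 (-0.10 to -0.02), -0.53 (-0.57 to -0.49) and -0.47 (-0.51 to -0.43), beside all-gene medians of 0.09, 0.01 and -0.09. In the first pair 10 of 41 genes were higher (59.4% of all genes), with 1 higher and 1 lower past 1.5-fold (14.3% and 5.85% of all genes). In the second 4 of 40 were higher (51.0% of all genes), with 0 higher and 13 lower past 1.5-fold (14.8% and 15.4% of all genes). In the last 2 of 41 were higher (42.1% of all genes), with 1 higher and 9 lower past 1.5-fold (7.79% and 18% of all genes). Mki67 was at 1060.5, 479 and 1169 CPM. Kif11, the motor that pushes spindle poles apart, was at 328, 146 and 275 CPM, and Bub1b at 181, 79.8 and 124 CPM. Each was lowest in p53 AD/-, with ratios to p53+/- of -1.15 (-1.33 to -0.96), -1.17 (-1.51 to -0.83) and -1.18 (-1.64 to -0.72). Cdc20, at 117, 122 and 123 CPM, and Ube2c, at 586, 608 and 584 CPM, were nearly level. These values rest on 29, 40 and 57 cells, and the counting intervals leave out differences between cells. The class was not found when the cells with the highest doublet scores were left out. The share of cells under 1% Malat1 was 34.5%, 62.5% and 22.8%, and its part in the result was not tested.

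Resting DP-like cells held few UMIs of most of the genes, and what they held differed between libraries. The genes were mostly higher in p53-/- and lower in p53 AD/-. On a scale relative to cycling DP-like cells of the same library, Smc4 stood out at 52.3%, 58.7% and 50.7%. Kif23, a kinesin of cytokinesis, was at 24.2%, 21.3% and 18.4%, Cdc25b at 17.8%, 15.5% and 20.5%, Kif20b, another cytokinesis kinesin, at 8.44%, 9.69% and 11.2%, and Cenpa at 9.01%, 6.81% and 11.7%. The lowest were Hmmr, a spindle protein, at 1.14%, 0.64% and 1.52%, Bub1 at 1.25%, 1.05% and 1.46%, Tpx2 at 1.23%, 1.30% and 1.74%, Ttk, the checkpoint kinase Mps1, at 2.95%, 0.66% and 1.33%, and Nusap1 at 1.36%, 0.61% and 1.58%. Cdk1 was at 2.45%, 0.90% and 3.27%, and Gtse1, with 14, 5 and 25 UMIs, at 7.31%, 5.91% and 10.6%. Smc4 lay above all others by more than counting error in every library, and the intervals of Kif23 lay above those of all others but Smc4 and Cdc25b. That of Cdc25b overlapped the interval of Kif20b in p53 AD/-. The profile of free RNA was not measured, so RNA from other cells and transcription in resting cells cannot be told apart.

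**Figure D5:**
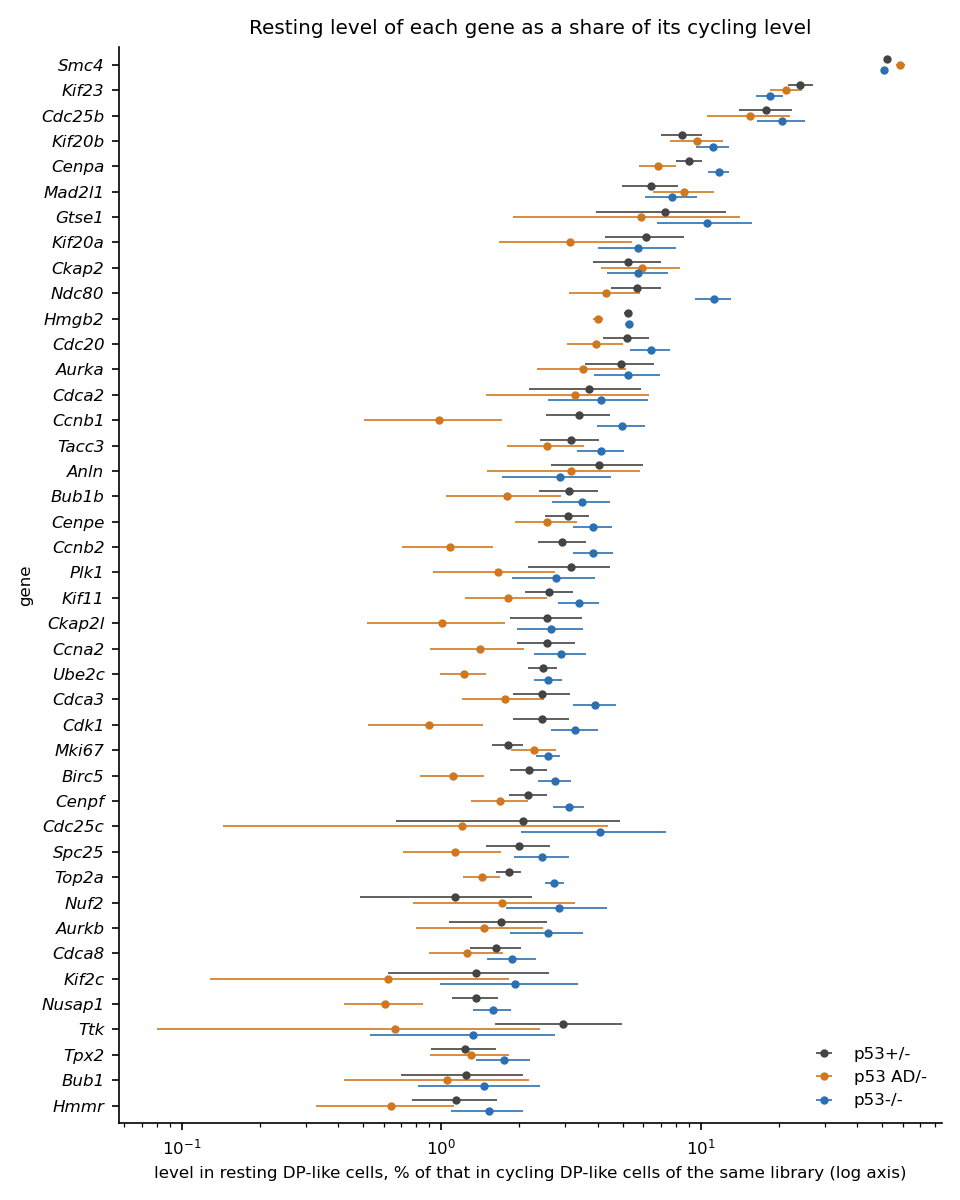
Level of each of the 42 genes in resting DP-like cells as a percent of that in cycling DP-like cells of the same library (log x axis), genes in order of their median, 3 libraries (colours); bars are 95% counting intervals. Smc4 lies near 50%, Kif23 and Cdc25b near 20%, and most other genes below 6%.

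For comparison, a cluster of other cells was read in the same way. Cluster 12, 35 cells led by the stromal genes Sparc, Col3a1 and Dcn, held 334 CPM (278 to 398) of the genes without Hmgb2. After each cell was thinned to 1500 UMIs, 1 of 34 of its cells (2.94%, 0.07 to 15.3) had 3 or more of their UMIs, against 45.7% of cells before thinning at a median of 8489 UMIs. In resting DP-like cells the thinned share was 15% (13.9 to 16.1), 13.8% (12.5 to 15.1) and 19.4% (18.2 to 20.6), and the unthinned share 37.9%, 23.1% and 38.7% at median UMIs of 2711, 1965 and 2270. The interval for p53-/- lay above those of the other libraries, which overlapped. Thinning left out 149, 548 and 335 shallower cells. In cycling DP-like cells the thinned share was 90.6%, 91.1% and 94.2%. Cluster 12 is no measure of free RNA in resting cells, since its cells are deeper, number 35 and include 1 with UMIs of 10 of the genes.

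In resting DP-like cells the summed log2 ratio was 0.18 (0.14 to 0.21) in the first pair, -0.17 (-0.21 to -0.13) in the second and -0.34 (-0.38 to -0.30) in the last. The medians of the measured genes were 0.52, -0.34 and -0.84, beside all-gene medians of 0.10, -0.04 and -0.13. For p53-/- over p53+/-, 36 of 39 measured genes were higher (64.6% of all genes), with 15 higher and 0 lower past 1.5-fold (6.24% and 3.10% of all genes). For p53 AD/- over p53+/-, 9 of 35 were higher (46.3% of all genes), with 1 higher, Mad2l1, and 10 lower past 1.5-fold (6.87% and 14% of all genes). For p53 AD/- over p53-/-, 2 of 37 were higher (40.3% of all genes), with 0 higher and 27 lower past 1.5-fold (6.69% and 21.4% of all genes). With TMM or median-of-ratios factors 34, 10 and 5 genes were higher. Top2a was at 27.9, 21.8 and 54.1 CPM and Ndc80 at 6.91, 6.18 and 15.2 CPM, with p53-/- alone at the top. Their ratios for p53-/- over p53+/- were 0.96 (0.76 to 1.15) and 1.14 (0.75 to 1.54). Cdk1 was at 5.58, 2.44 and 8.55 CPM, from 67, 17 and 95 UMIs, and Ccnb1 at 4.41, 1.72 and 8.01 CPM, from 53, 12 and 89 UMIs. For these the 3 libraries were in 1 order, p53 AD/- lowest and p53-/- highest, with ratios of -1.81 (-2.65 to -1.05) and -2.22 (-3.22 to -1.34) for p53 AD/- over p53-/-. Kif23, at 31.6, 31.5 and 25.9 CPM, and Mad2l1, at 5.66, 8.76 and 7.02 CPM, did not share that order. Smc4, which made up most of the summed level without Hmgb2, was nearly level at 536, 538 and 570 CPM.

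Several other measures differed between the resting DP-like cells of the libraries. The mix of clusters differed: cluster 0 held 19.8%, 76.2% and 3.58% of the class and cluster 5 held 30.1%, 2.27% and 67.0%. Cluster 0 thus held most of it in p53 AD/- and cluster 5 in p53-/-, while no cluster did in p53+/-. Within cluster 0 the genes without Hmgb2 were at 773, 746 and 924 CPM, and within cluster 5 at 864, 839 and 987 CPM, so p53-/- was the highest library in both. In cluster 1 it was also highest, at 816, 851 and 1167 CPM, and in cluster 4 it was not, at 860, 936 and 898 CPM. In clusters 1 and 4 p53 AD/- lay above p53+/-, against the direction in the whole class. Cells under 1% Malat1 were 0.90%, 20.4% and 0.74% of the class. Among cells at or above 1% the level was 832, 811 and 989 CPM. The 5 erythroid markers summed to 468, 13.8 and 105 CPM and the 6 granulocyte markers to 37.7, 5.03 and 48.3 CPM, with no marker of either list in 5% of cells. Of the other lists, 2 of 6 B markers, 1 of 10 dendritic or macrophage markers and 1 of 9 epithelial, stromal or endothelial markers reached 5% of cells, with sums of 318 to 393 CPM, 177 to 273 CPM and 65.4 to 96.2 CPM over the libraries. Their part in the result was not tested. Cells with 5 or more UMIs of the genes without Hmgb2 held 40.1%, 27.3% and 40.6% of those UMIs. Without these cells and without Hmgb2 the summed ratios were 0.27 (0.22 to 0.32), 0.04 (-0.02 to 0.10) and -0.24 (-0.29 to -0.18). With Hmgb2 kept and the same cells left out, p53 AD/- over p53+/- was -0.10 (-0.15 to -0.05). The choice of these cells depends on the genes measured and on depth (14.2%, 7.26% and 14.5% of cells), so these values are a description.

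Mature SP-like cells held the genes at 1706, 1726 and 2381 CPM. Cells with 5 or more UMIs of the genes without Hmgb2 numbered 244 of 472, 139 of 383 and 327 of 680 and held 88.3%, 85.6% and 90.4% of those UMIs. A single cell held UMIs of up to 37, 39 and 40 of the other 41 genes, although the cluster as a whole was not named as cycling. The remaining cells held 308, 314 and 356 CPM. The summed ratio was 0.48 (0.44 to 0.53), 0.02 (-0.04 to 0.07) and -0.46 (-0.52 to -0.41) in the 3 pairs, beside all-gene medians of 0.10, -0.05 and -0.16. In the first pair 35 of 36 measured genes were higher (65.1% of all genes), with 27 higher and 0 lower past 1.5-fold (7.40% and 3.03% of all genes). In the second 20 of 32 were higher (45.5% of all genes), with 11 higher and 2 lower (6.46% and 14.8% of all genes). In the last 4 of 37 were higher (37.3% of all genes), with 0 higher and 16 lower (5.17% and 21.9% of all genes). Cells under 1% Malat1 were 7.42%, 44.9% and 4.85% of the class, and their part in the result was not tested. Nusap1 was at 16.4, 35.3 and 54.3 CPM and Ccna2, the cyclin of S and G2 phases, at 4.92, 9.65 and 15.2 CPM. Both followed the order p53+/-, p53 AD/-, p53-/-, with ratios for p53-/- over p53+/- of 1.73 (1.32 to 2.16) and 1.63 (0.86 to 2.46). Without the cells holding 5 or more UMIs and without Hmgb2, the sums were 0.21 (0.04 to 0.38), 0.03 (-0.17 to 0.22) and -0.18 (-0.36 to -0.01). Selected-like cells held 1131, 908 and 1204 CPM. They are not compared between libraries, because 1 of their clusters was led by more markers of resting DP cells (Cd8b1, Themis) than of its own class (Tox).

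Other genes of the cycle were read beside the 42 in cycling DP-like cells. Of 25 S-phase genes, 19 were higher and 6 lower for p53-/- over p53+/-, 10 and 15 for p53 AD/- over p53+/-, and 9 and 16 for p53 AD/- over p53-/-, with summed ratios of 0.11, -0.03 and -0.14. Of all genes, 66.1%, 37.9% and 32.4% were higher in these pairs. Of 54 further G2 and mitotic genes, 42 were higher and 12 lower, 29 and 25, and 21 and 33, with sums of 0.13, 0.12 and -0.01. Both lists served to name the cycling clusters. The regulators of these genes, 21 subunits of DREAM and of the B-MYB and FOXM1 complexes with their E2F and NF-Y partners, had 14 higher and 7 lower, 7 and 14, and 4 and 17, near the share of all genes in the first pair. Rbbp4, the histone-binding subunit, was at 329, 331 and 387 CPM, Nfyb, an NF-Y subunit, at 130, 161 and 143 CPM, E2f2, an activating E2F, at 135, 108 and 155 CPM, and Tfdp1, the partner of E2F factors, at 99.98, 101 and 114 CPM. None of these 21 genes passed 1.5-fold for p53-/- over p53+/-, and for p53 AD/- over p53+/- 2 were higher and 2 lower (4.62% and 16.6% of all genes). Of 21 genes on the route from p53 to the cycle, 13 were higher and 8 lower, 9 and 12, and 7 and 14. The sum of this list was carried by Ccnd3, the D cyclin of thymocytes, at 601, 971 and 656 CPM, so its summed ratio for p53 AD/- over p53+/- was 0.33 while the median of its genes was -0.06. Cdk4, the kinase partner of D cyclins, was at 213, 289 and 220 CPM and Btg2, an antiproliferative p53 target, at 192, 241 and 195 CPM. Both were highest in p53 AD/-. Foxm1, the activator of late cell cycle genes, at 39.2, 28.5 and 44.8 CPM, and Cdk6, at 93.1, 33.4 and 90.9 CPM, were named after their values were seen, and both were lowest in p53 AD/-.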

How the data were processed

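Thymus cells of 3 mouse libraries were measured by single-cell RNA sequencing. The authors deposited matrices of UMI counts per gene and cell, which per the file headers came from Cell Ranger 4.0.0, aligned to GRCm38 per the submitters' processing notes. Cells with at least 500 genes and under 10% mitochondrial UMIs were kept. Clusters were made with scanpy 1.11.5 (Python 3.11.15, igraph 0.11.9) from 2000 variable genes without the 42 members, 30 principal components, 15 neighbours and Leiden resolution 1, with no batch integration. UMIs were summed per class and library and divided by all UMIs of that class. Deeper classes have narrower intervals, which are exact Poisson, Clopper-Pearson or conditional binomial (scipy 1.17.1). Genes with at least 30 UMIs over a pair entered counts. TMM factors came from edgeR 4.0.16 and were used for scaling alone. The ratios and their intervals were tested on simulated Poisson counts, which held no added spread between cells or libraries. The other steps, such as clustering, were not tested in this way. Named were the 2 members of each role group with most UMIs, the 3 highest and 3 lowest ratios per class and pair, the 5 highest and 5 lowest in cycle order and in resting share, Gtse1 and Cdk1; other members named were chosen after their values were seen. The members, lists and class limits were chosen with earlier results of these data known. Alternatives changed the filter, clustering, scaling, doublets and Malat1 content.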

Additional observations from a re-analysis of the deposited data

Results flagged for a closer look

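In 4 comparisons the summed log2 ratio of the 42 genes had the opposite sign to that of cycling DP-like cells in the same pair of libraries. In cycling mature-like cells it was -0.059 for p53-/- over p53+/-, against 0.12 in cycling DP-like cells. For p53 AD/- over p53+/- it was -0.53 in cycling mature-like cells and -0.17 in resting DP-like cells, against 0.09 in cycling DP-like cells. For p53 AD/- over p53-/- it was 0.046 in DN-like cells, against -0.03 in cycling DP-like cells, a value that TMM or median-of-ratios factors turn positive. Without Hmgb2 the DN-like value was -0.025, so the opposite sign rests on Hmgb2. The cycling mature-like class was not found without the highest doublet scores. With 1 library per genotype, the differences between classes were not tested. The cycling mature-like values rest on 29, 40 and 57 cells.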

How the results depend on the processing

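No paired analysis was possible because each genotype has 1 library. Values come in the order p53 AD/- over p53+/- (the first pair), then over p53-/- (the second), then p53-/- over p53+/- (the last), with the main sums at 0.09, -0.03 and 0.12 in cycling and -0.17, -0.34 and 0.18 in resting DP-like cells. Except where stated, the cause of a change was not tested. Leaving out cells under 1% Malat1 reversed all 3 cycling sums, to -0.032, 0.014 and -0.046, with resting sums of -0.12, -0.26 and 0.14, cycling shares of 7.55% (p53 AD/-), 6.16% (p53+/-) and 11.4% (p53-/-), and 0 genes past 1.5-fold in the first cycling pair. TMM factors gave cycling sums of 0.19, 0.14 (reversed) and 0.049, resting sums of -0.20 (second pair) and 0.074 (last), and 4 and 4 genes past 1.5-fold in the first 2 cycling pairs. Median-of-ratios factors gave 0.21, 0.17 (reversed) and 0.048, resting sums of -0.11, -0.20 and 0.083, and 4 and 5 genes. Scaling was not varied for the other classes. At Leiden resolution 0.5 the cycling DP-like class was smaller, with 505 (p53 AD/-), 657 (p53+/-) and 1052 (p53-/-) cells. The resting DP-like class was larger, with 3658, 4726 and 5191 cells. Cycling cells joined the resting class there, and whether these were S-phase cells alone was not tested. In that setting shares were 8.18%, 8.06% and 11%, cycling sums 0.075, -0.061 and 0.14, resting sums -0.016, -0.49 and 0.48, and resting counts 2, 12 and 31. Without the highest doublet scores, shares were 12%, 12.3% and 16.3%, cycling sums 0.074, -0.060 and 0.13, resting sums -0.29, -0.39 and 0.10, and the last resting count 7. With at least 1000 genes per cell, shares were 16.3% (p53 AD/-), 13.5% (p53+/-) and 19.7% (p53-/-), cycling sums 0.076 (first pair) and 0.11 (last), and resting sums -0.11 and 0.21. Without cycle genes in the clustering, the p53 AD/- share was 12.4% and the second and last cycling sums -0.023 and 0.11. No cycling mature-like class was found in that setting, at Leiden resolution 0.5 or without the highest doublet scores, so its ratios have no value there. With the 42 genes kept in it, the first 2 cycling sums were 0.10 and -0.022 and the second resting sum -0.30. Means over cells gave cycling sums of 0.067, -0.10 and 0.17. Without Hmgb2 they were 0.13, -0.10 and 0.22, with resting sums of -0.091 (first) and 0.26 (last). At least 100 UMIs over a pair left 5 genes in the first resting count, since fewer genes were counted. Added after seeing the data, an equal mix of cycling clusters gave 0.059, -0.10 and 0.16, and leaving out resting cells with 5 or more UMIs gave resting sums of -0.10 and -0.25 in the first 2 pairs.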

Other observations

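The genes were also read in clusters that belong to no class above, summed without Hmgb2 and over the 3 libraries. Cluster 16, led by the B cell genes Igkc, Cd79a and Ms4a1, held 1751 CPM (1672 to 1833), and 11.9% (6.5 to 19.5) of its cells had 3 or more UMIs of the genes after thinning to 1500 UMIs. Cluster 19, led by Cst3, Tyrobp and Lyz2, held 1311 CPM, with 15.8% of cells, and cluster 18, led by antigen presentation genes with Krt17, 718 CPM, with 7.58% of cells. In cluster 16 a single cell held UMIs of all 41 genes.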
